A study of Homo sapiens with 41 samples.

Results

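The comparison described here was the step from the window of 80 to 100 min to the window of 110 to 140 min in a serum response of T98G cells, a line derived from a human glioblastoma and arrested here by serum withdrawal. The members were chosen by time point: the 3 libraries at 80, 90 and 100 min formed the earlier window and the 4 libraries at 110, 120, 130 and 140 min the later one, together 7 of the 41 libraries of the series. All cultures were grown in medium with 10% fetal calf serum, left for 24 h after seeding and starved for 72 h in serum-free medium, and those of both windows were then given medium with 20% fetal calf serum, so the windows were set apart by the time since stimulation. Each time point was a separately seeded culture of this one line, sequenced once as total RNA depleted of ribosomal RNA. No time point had a replicate. Neighboring time points stood in for replicates, so the spread within a window held the trend within it as well as the error between cultures.

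When serum is given back to arrested cells, signaling through the ERK kinase cascade first switches on immediate early genes, many of which encode short-lived transcription factors. Delayed genes follow, among them feedback phosphatases, secreted factors, cytoskeletal genes and the machinery that makes ribosomes. The first wave is usually transient, since its mRNAs decay quickly and several of its products repress the signal. The step compared here asks which transcripts were on their way down, and which on their way up, around the end of the second hour.

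The 7 libraries held 36781459 to 51723300 counts. Spike-in sequences took 1.344% to 1.93% of the counts at 80 to 100 min and 1.37% to 1.74% at 110 to 140 min. The share of mitochondrially encoded mRNAs was 0.510% to 0.546% in the earlier window and 0.478% to 0.506% in the later one, with an exact permutation p of 0.0571, the smallest that 3 against 4 libraries allow, and an adjusted p of 0.343 over 6 library measures. The 80 min library stood furthest from its window mean, by a median of 0.118 on the log2 scale over 12684 genes, against 0.0447 to 0.0797 for the other 6. Of 8 markers examined for the culture, VIM (41378 to 46690 normalized counts), CD44 and FN1 were abundant in every library. NES (42.2 to 61.7 normalized counts) and OLIG2 (18.1 to 29.97) were low, GFAP and S100B had at most 4 counts and SOX2 at most 1. Of 12 markers of immune, endothelial, epithelial, neuronal and red blood cells, 3 (TYROBP, STMN2 and HBB) had 0 counts, and their summed raw counts, which follow depth, ranged from 653 to 989 in the earlier and from 631 to 946 in the later window. Most of the sum was SNAP25, a neuronal marker with 506, 717 and 665 and then 661, 747, 732 and 724 normalized counts, which the spline fit described below called higher (log2 change 0.19 ± 0.11, spline adjusted p = 7.91e-05) although its windows overlapped. Its part in other results was not tested. In total RNA, a change in cell number cannot be told apart from a change in RNA per cell.

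With the 7 libraries alone and edgeR's quasi-likelihood test, no gene of 21629 passed an adjusted p of 0.01 in either direction (0% called higher, 0% lower). The smallest adjusted p was 0.0172, 2719 genes had an unadjusted p below 0.05, and at an adjusted p of 0.05 there were 172 higher genes (0.795% of those tested) and 28 lower genes (0.129%). DESeq2 on the same libraries called 283 higher and 77 lower at 0.01. Without the 80 min library, edgeR called 72 higher and 39 lower.

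Genes are described below by a second fit, in which a smooth curve in time (a natural spline with 7 degrees of freedom) was fitted to all 41 libraries and its mean over 110 to 140 min was compared with its mean over 80 to 100 min. This spline fit called 2372 genes higher (11% of those tested) and 1330 lower (6.15%) at an adjusted p of 0.01. It was used for naming genes only after the 7-library fit had called none, and its error was the scatter of all libraries around their curves. "Rose" and "fell" below refer to its calls. With 10 degrees of freedom it called 1110 higher and 374 lower, and with size factors from the spike-in sequences 1562 higher and 135 lower, so that the share of calls that were higher moved from 64.1% to 92.0%. These totals, each of 21629 genes tested, are the background for the list counts given under the same settings below. All 172 and 28 genes at an adjusted p of 0.05 in the 7-library fit were among its calls in the same direction. The 7 libraries were among the 41 of the spline fit, so this overlap is not independent support. Log2 changes are given from the 7-library fit, as the mean of the later window over that of the earlier. Their standard error (SE) was derived from the F statistic of that fit of 3 against 4 libraries, whose dispersions were moderated across genes. Differences of log2 changes between steps are given with SEs derived in the same way from the spline fit.

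The windows did not overlap for 1859 genes with higher values in the later window (8.59% of those tested) and for 1025 with lower values (4.74%). Of the called genes, 1277 of the 2372 higher and 525 of the 1330 lower had windows that did not overlap. The median change was 0.23 on the log2 scale among higher genes, and 59 higher and 47 lower genes changed at least 2-fold. By class, 14.9% of 14056 protein-coding genes were higher and 7.69% lower, whereas 3.93% of 3508 lncRNAs were higher and 4.59% lower, and 3.59% and 2.16% of 4065 genes of other classes. These shares are not adjusted for count level. Of 14155 genes with a mean of at least 50 normalized counts, 11898 were protein-coding. Median absolute log2 changes of called genes were 0.37 (higher) and 0.42 (lower) in lncRNAs and 0.22 each way in protein-coding genes. The classes were not compared at equal counts.

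**Figure D1:**
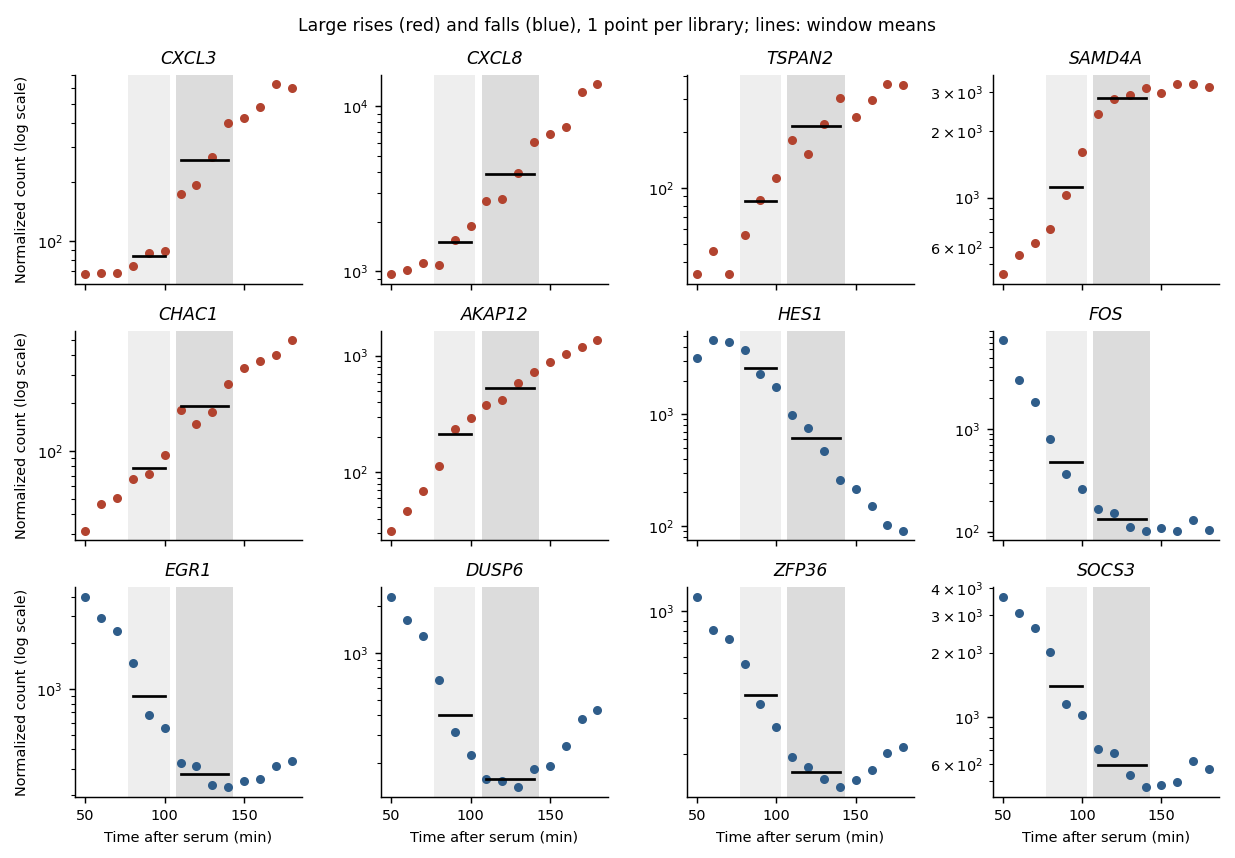
Normalized counts (log scale) against time after serum (min) for 6 of the 12 protein-coding genes with the largest rises (red) and 6 of the 12 with the largest falls (blue), 1 point per library from 50 to 180 min. Pale and darker bands mark the windows of 80 to 100 and 110 to 140 min and black lines their means. Genes were picked for windows that do not overlap, so every point of the later window lies beyond every point of the earlier one. Values also change within both windows.

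The largest falls were those of short-lived regulators of the first wave. HES1, a transcriptional repressor downstream of Notch, on chr3:194136148-194138732 in GRCh38, had 3740.1, 2317 and 1756 normalized counts at 80, 90 and 100 min and 978, 747, 466 and 259.6 at 110, 120, 130 and 140 min. Each library was below the one before it, and the log2 change was -2.09 ± 0.45 (edgeR adjusted p = 0.0976, spline fit 6.27e-28). FOS, which joins JUN proteins in the AP-1 factor, on chr14:75278826-75282230, went from 797, 369 and 258 to 168, 151, 109.7 and 102 normalized counts. Its log2 change was -1.85 ± 0.41 (edgeR adjusted p = 0.101, spline fit 6.43e-30). In counts, though not on the log2 scale, most of the drop from 80 to 140 min lay between 80 and 90 min, inside the earlier window.

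The 250 bases before the start that RefSeq annotates for both genes are shown because these transcripts fell furthest, from GRCh38.p14, read 5′ to 3′ on the strand of the gene. In these and the promoters printed below, capitals mark any match to 7 motifs: the E-box CACGTG, the AP-1 site TGANTCA, the CRE TGACGTCA, the TEAD site GGAATG, the ETS site CCGGAAG, the SRF CArG box and the NF-kappaB site. Both strands were searched, and neither window held a match.
HES1 (chr3:194135898-194136147, plus strand): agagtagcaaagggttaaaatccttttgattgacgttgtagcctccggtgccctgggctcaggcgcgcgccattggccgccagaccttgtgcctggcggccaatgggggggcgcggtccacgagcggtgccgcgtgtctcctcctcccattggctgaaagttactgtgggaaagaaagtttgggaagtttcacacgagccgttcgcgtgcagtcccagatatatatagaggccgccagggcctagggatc
FOS (chr14:75278578-75278827, plus strand): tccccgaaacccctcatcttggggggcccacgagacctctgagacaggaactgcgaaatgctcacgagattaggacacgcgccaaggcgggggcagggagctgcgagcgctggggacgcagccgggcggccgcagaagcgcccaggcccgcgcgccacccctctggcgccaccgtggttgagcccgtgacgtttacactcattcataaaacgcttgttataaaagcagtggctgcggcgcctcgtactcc

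Other immediate early genes declined along with them. EGR1, a zinc finger transcription factor, had 1468, 677 and 555 and then 324, 314, 236 and 227 normalized counts, a log2 change of -1.72 ± 0.35. The orphan nuclear receptor NR4A1 had 4767, 3347 and 3356 and then 2481, 2107, 1548 and 1064, a change of -1.09 ± 0.29. In IER2, a nuclear immediate early protein, the values were 1736, 1088 and 956 followed by 727, 642, 517 and 542, a change of -1.06 ± 0.22. The windows of all 3 genes were separate, since genes with the largest changes were named only if their windows did not overlap. Their edgeR adjusted p-values were 0.0872, 0.156 and 0.0883 and their spline adjusted p-values 7.07e-16, 1.07e-12 and 1.59e-16. Of 28 immediate early transcription factors tested, 19 fell, 1 rose and 8 did not pass, with a median log2 change of -0.57 against 0.01 over all genes. None of the 28 passed an adjusted p of 0.05 in the 7-library fit, and 16 fell in the spline fit without the 80 min library. In the step before, from 50-70 to 80-100 min, 12 of the 28 had fallen and 6 had risen.

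Negative regulators of the growth factor signal fell as well. DUSP6, a phosphatase that inactivates ERK, had 672, 315 and 223 normalized counts in the earlier window and 156, 153, 139.9 and 183 in the later one. Its minimum was at 130 min and it was higher again at 140 min, so the windows were separate but the decline ended inside the later one (log2 change -1.36 ± 0.37, edgeR adjusted p = 0.165, spline fit 1.68e-23). DUSP5, a nuclear ERK phosphatase, declined in every library over the one before, from 8351 to 2885 normalized counts, and SPRY4, an inhibitor of receptor tyrosine kinase signaling, went from 578 at 80 min to 307 at 140 min. Of 16 ERK phosphatases and feedback inhibitors, 11 fell and 4 rose, with a median log2 change of -0.38. With spike-in size factors 3 of the 16 were called lower, beside 135 of all 21629 genes. SOCS3, a suppressor of cytokine signaling, had 2016, 1152 and 1025 and then 705, 676, 537 and 470.5 normalized counts, a log2 change of -1.23 ± 0.26.

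ZFP36, which binds AU-rich elements and promotes mRNA decay, had 549, 352 and 271 and then 194, 172, 151 and 138 normalized counts. Every library was below the one before it, with a log2 change of -1.26 ± 0.24 and adjusted p-values of 0.0613 by edgeR and 8.88e-14 by the spline fit. Of 8 mRNA decay factors 4 fell, among them the antiproliferative gene BTG2 (log2 change -0.97 ± 0.26), and 1, BTG3, rose (0.33 ± 0.09). With spike-in size factors 2 of the 8 were lower, beside 135 of all 21629 genes. Among 7 serum-induced kinases, PIM1 (-0.68 ± 0.20) and the pseudokinase gene TRIB1 (-0.53 ± 0.15) fell, while PLK2, a polo-like kinase, went from 32942, 39351 and 43364 to 52110.5, 56699, 63132 and 66040.1 normalized counts and was one of 2 members past 0.05 in the 7-library fit (log2 change 0.63 ± 0.11, edgeR adjusted p = 0.0369).

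The remaining large falls were of other kinds. KCNE4, an accessory subunit of potassium channels, had 2588, 1961 and 1566 and then 1242, 1084, 890.0 and 741 normalized counts (log2 change -1.05 ± 0.22), and BMP4, a secreted ligand of the BMP pathway, had 306, 181 and 175 and then 113, 129, 108 and 81.5 (-1.04 ± 0.23). TXNIP, which binds thioredoxin and restrains glucose uptake, had 3043, 2183 and 1914 and then 1422, 1423, 1109 and 768 (-1.01 ± 0.25). FAM110B had 785, 728 and 583 and then 434, 399, 330.2 and 248 (-0.99 ± 0.18). By the same naming rule, none of these 4 genes had overlapping windows. Their spline adjusted p-values ran from 9.22e-32 for KCNE4 to 8.71e-16 for BMP4.

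Genes linked to arrest declined in part. Of 25 genes of growth arrest and FOXO targets, 10 fell and 2 rose (median log2 change -0.18). CDKN1B, which encodes the cyclin-dependent kinase inhibitor p27, had 837, 636 and 463 and then 430.3, 394, 379.5 and 306 normalized counts, a log2 change of -0.78 ± 0.20. CCNG2, a cyclin of quiescent cells, had 509, 547 and 495 and then 360.1, 329, 335 and 274, and passed 0.05 in the 7-library fit (log2 change -0.68 ± 0.09, edgeR adjusted p = 0.0186). Of 17 circadian clock genes, 9 fell, among them PER1 (-0.74 ± 0.23) and the repressor BHLHE40 (-0.61 ± 0.12), and 3 rose. With spike-in size factors 6 of the 25 and 2 of the 17 were lower, and with 10 degrees of freedom 8 and 5. Over all 21629 genes these settings called 135 and 374 lower.

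The largest rises were those of secreted signals. CXCL3, a chemokine that attracts neutrophils, had 74.5, 87.1 and 89.1 normalized counts at 80 to 100 min and 174, 193, 267 and 400.2 at 110 to 140 min. It was close to flat in the earlier window and climbed through the later one (log2 change 1.64 ± 0.32, edgeR adjusted p = 0.0693, spline fit 6.84e-19). CXCL8, which encodes interleukin-8, on chr4:73740519-73743716, had 1084, 1545 and 1885 and then 2680.4, 2730.3, 3950.5 and 6096, a log2 change of 1.36 ± 0.34 (edgeR adjusted p = 0.138, spline fit 1.56e-16). CXCL3 has close relatives in the same chemokine cluster, and reads that mapped to several places were counted for each gene, so its level is uncertain.

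The upstream sequences of CXCL3 and CXCL8 are shown because these chemokine genes were among those that rose most.
CXCL3 (chr4:74038690-74038939, minus strand): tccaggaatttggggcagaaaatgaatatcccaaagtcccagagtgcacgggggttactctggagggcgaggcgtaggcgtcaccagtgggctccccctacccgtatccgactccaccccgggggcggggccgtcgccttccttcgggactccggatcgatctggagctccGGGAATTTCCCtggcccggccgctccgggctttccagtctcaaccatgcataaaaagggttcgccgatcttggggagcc
CXCL8 (chr4:73740319-73740568, plus strand): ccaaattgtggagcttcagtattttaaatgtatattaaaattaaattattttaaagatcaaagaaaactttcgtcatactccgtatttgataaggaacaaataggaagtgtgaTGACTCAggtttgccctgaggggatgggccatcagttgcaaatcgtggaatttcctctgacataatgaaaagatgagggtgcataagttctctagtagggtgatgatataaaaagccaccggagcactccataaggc
The capitals in CXCL3 are 2 overlapping matches to the NF-kappaB site, beginning 79 and 78 bases before the start, and those in CXCL8 an AP-1 match beginning 137 bases before it. CXCL8 also holds ggaatttcc, a stretch found within the CXCL3 capitals. It stayed in lower case because it did not match the whole NF-kappaB pattern searched. A lack of capitals therefore does not show that a site is absent.

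The cytokine genes IL6 and CLCF1, both of the interleukin-6 family, rose as well. IL6 had 2073, 2733 and 3509 and then 5022, 5561, 6979 and 8725 normalized counts (log2 change 1.25 ± 0.25) and CLCF1 had 287, 443 and 616 and then 792, 934, 960.4 and 1092 (1.08 ± 0.24). Both increased in every library over the one before. Of 28 secreted growth factors and cytokines, 19 rose and 1 fell, with a median log2 change of 0.57. These counts were the same without the 80 min library and with spike-in size factors. In the step before, 22 had risen, and in the step after, to 150-180 min, 19 rose. Of 17 NF-kappaB subunits and targets, 11 rose and 1 fell (median 0.44), and CCL2, a monocyte chemokine of this list, had 16496, 21693 and 24620.0 and then 31533, 30716, 38208 and 45523 normalized counts.

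Other protein-coding genes among the 12 largest rises had varied roles. The tetraspanin gene TSPAN2 had 55.7, 85.5 and 113 and then 181, 151, 219 and 302 normalized counts, a log2 change of 1.35 ± 0.30. SAMD4A, which encodes an RNA-binding repressor of translation, had 718, 1031 and 1612 and then 2394, 2778, 2916 and 3123, a change of 1.33 ± 0.26. CHAC1, which degrades glutathione and is a target of ATF4, had 66.8, 71.5 and 94.6 and then 181, 147, 176 and 265, and passed 0.05 in the 7-library fit (log2 change 1.32 ± 0.21, edgeR adjusted p = 0.0295). SAMD4A was already climbing within the earlier window, whereas TSPAN2 and CHAC1 each dropped once, at 120 min. AKAP12, a scaffold for protein kinases, had 114, 236 and 294 and then 379, 415, 578 and 723 normalized counts (1.30 ± 0.36). MYPN, a protein of the actin cytoskeleton, had 38.5, 70 and 103 and then 123, 145, 178 and 222 (1.28 ± 0.32). DIO2, the deiodinase that activates thyroid hormone, had 1103, 1635 and 1914 and then 2447, 2837, 3435 and 4379 (1.08 ± 0.25). SHISAL1 had 334, 417 and 539 and then 790.4, 875, 960.4 and 1063 and also passed 0.05 (log2 change 1.108 ± 0.16, edgeR adjusted p = 0.0286). The windows of all 7 genes were separate, as the rule for naming the largest changes required.

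**Figure D2:**
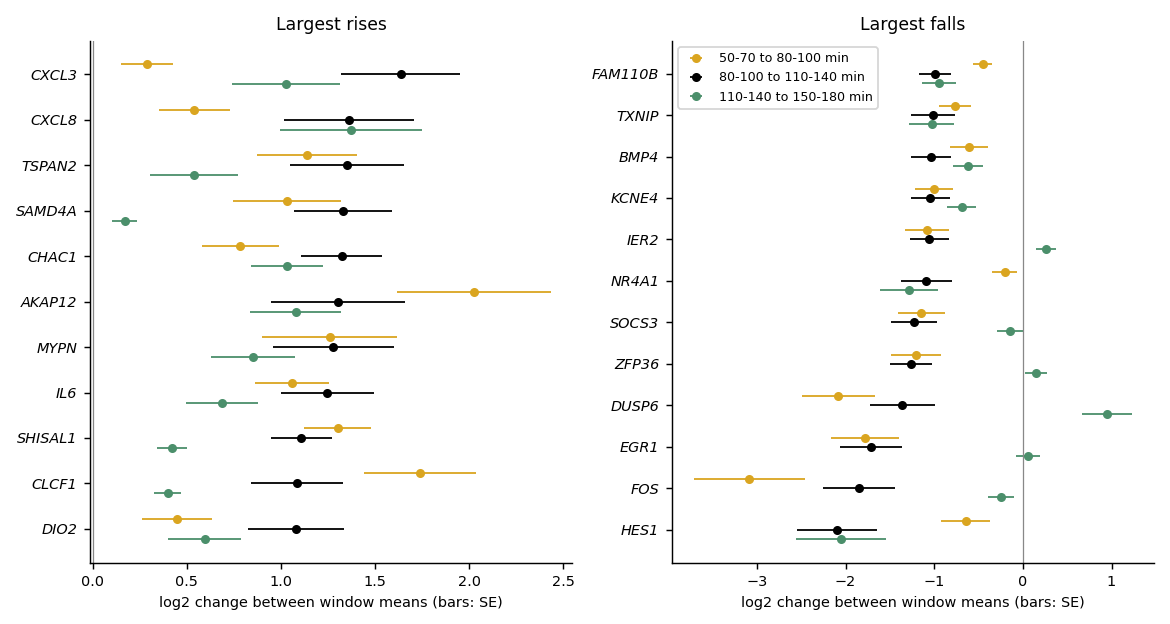
Log2 change between window means (points, with SE as bars) for 11 of the 12 protein-coding genes with the largest rises (left) and the 12 with the largest falls (right), in the step before (yellow), the step from 80-100 to 110-140 min (black) and the step after (green). DUSP6 went from -1.36 ± 0.37 in the step to 0.95 ± 0.28 in the step after, and HES1 from -2.09 ± 0.45 to -2.05 ± 0.51; neighboring steps share a window, so their values are not independent.

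Cytoskeletal and adhesion genes rose by smaller amounts. SRF and its cofactors, the MRTFs, link actin dynamics to transcription, and of 31 of their cytoskeletal targets 20 rose and 0 fell (median log2 change 0.19, 6 past 0.05 in the 7-library fit). With 10 degrees of freedom 10 of them were higher. MICAL2, an actin-oxidizing enzyme, had 2073, 2682 and 3251 and then 4270.2, 4245, 4652 and 5529 normalized counts, and FHL2, a LIM-domain cofactor, had 4685, 4923 and 5297 and then 6390.1, 6368, 6767 and 7687 (log2 change 0.45 ± 0.07, edgeR adjusted p = 0.028). YAP is a coactivator of TEAD factors that responds to cell shape, and 12 of 21 targets rose and 0 fell. ANKRD1, a target of this list, had 3274, 4394 and 5149 and then 6499.9, 7088, 7512 and 8814 normalized counts (0.81 ± 0.16). Of 21 integrins and focal adhesion genes 12 rose and 0 fell, and ITGA5, a fibronectin receptor subunit, changed by 0.47 ± 0.08 (edgeR adjusted p = 0.0277). With 10 degrees of freedom 8 of the YAP and TEAD list and 7 of the integrin list were higher. The median log2 change was 0.12 in both of these lists. In the step before, 22 of the SRF and MRTF list had risen, 16 of the YAP and TEAD list and 11 of the integrin list. The medians there were 0.32, 0.30 and 0.19. In the step after, 18, 6 and 8 rose, and 5 of the YAP and TEAD list fell.

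Matrix genes moved upward and the protease list was mixed. Of 20 matrix proteins 10 rose and 0 fell, with 6 higher at 10 degrees of freedom. COL4A2, a basement membrane collagen chain, had 4668, 4566 and 5399 and then 6878, 7295, 7514 and 8595 normalized counts and the smallest adjusted p of the 7-library fit among the genes named here (log2 change 0.63 ± 0.08, edgeR adjusted p = 0.0172), and its partner COL4A1 changed by 0.70 ± 0.14. Of 18 proteases and inhibitors of the plasminogen, MMP and ADAMTS systems 8 rose and 2 fell, ADAMTS1 by -0.59 ± 0.12. The TGF-beta feedback list was mixed, with 4 of 11 higher, such as PMEPA1 (0.73 ± 0.11), and 3 lower, such as the corepressor TGIF1 (-0.69 ± 0.15). Among mesenchymal factors and cadherins 3 of 11 rose and 3 fell, with SNAI1, an epithelial-mesenchymal transition repressor, going from 1918, 1437 and 1549.5 to 1233, 1012, 801 and 439 normalized counts and the cadherin gene CDH2 from 649, 761 and 863 to 1059.9, 1105, 1370.2 and 1839.7.

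Of the 48 lists, the largest share called was in ribosome biogenesis, the factors that transcribe, cut and assemble ribosomal RNA in the nucleolus. Of 43 members 42 rose and none fell, against 11% of all genes and 14.9% of protein-coding genes higher. FBL, the methyltransferase fibrillarin, was the member that did not pass (log2 change 0.06 ± 0.09). The median log2 change was 0.33, and 13 members passed 0.05 in the 7-library fit. NOP16, a nucleolar protein of the large subunit, had 997, 1037 and 1205 and then 1508, 1596, 1700.4 and 1970.0 normalized counts (log2 change 0.65 ± 0.10, edgeR adjusted p = 0.0238). RRS1, also of large subunit assembly, had 663, 777 and 779 and then 1080.3, 1041, 1089 and 1231 (0.59 ± 0.08, 0.0194), and DDX21, a nucleolar RNA helicase, had 3410.5, 5305 and 5458 and then 5709.5, 6085, 7307 and 8259 (0.53 ± 0.20, 0.326). DDX21 was lowest at 80 min. Without the 80 min library 40 of the 43 rose, with spike-in size factors 38 and with 10 degrees of freedom 35. The list also had 34 higher members in the step before and 41 in the step after.

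The 250 upstream bases of NOP16 and DDX21 are shown because they were 2 of the 3 members with the largest changes.
NOP16 (chr5:176388599-176388848, minus strand): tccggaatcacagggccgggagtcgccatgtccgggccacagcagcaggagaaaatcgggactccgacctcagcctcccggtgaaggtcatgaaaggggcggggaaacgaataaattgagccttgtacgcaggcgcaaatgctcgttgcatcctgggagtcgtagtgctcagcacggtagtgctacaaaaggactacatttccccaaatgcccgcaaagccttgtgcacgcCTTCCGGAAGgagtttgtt
DDX21 (chr10:68955920-68956169, plus strand): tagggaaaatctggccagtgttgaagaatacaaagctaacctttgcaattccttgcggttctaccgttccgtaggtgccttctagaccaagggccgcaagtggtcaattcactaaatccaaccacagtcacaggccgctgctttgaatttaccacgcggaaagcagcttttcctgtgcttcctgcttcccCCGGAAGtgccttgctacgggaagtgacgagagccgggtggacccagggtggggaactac
Both held an ETS match, in NOP16 as 2 overlapping matches on opposite strands, beginning 19 and 16 bases before the start and in DDX21 beginning 60 bases before it.

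**Figure D3:**
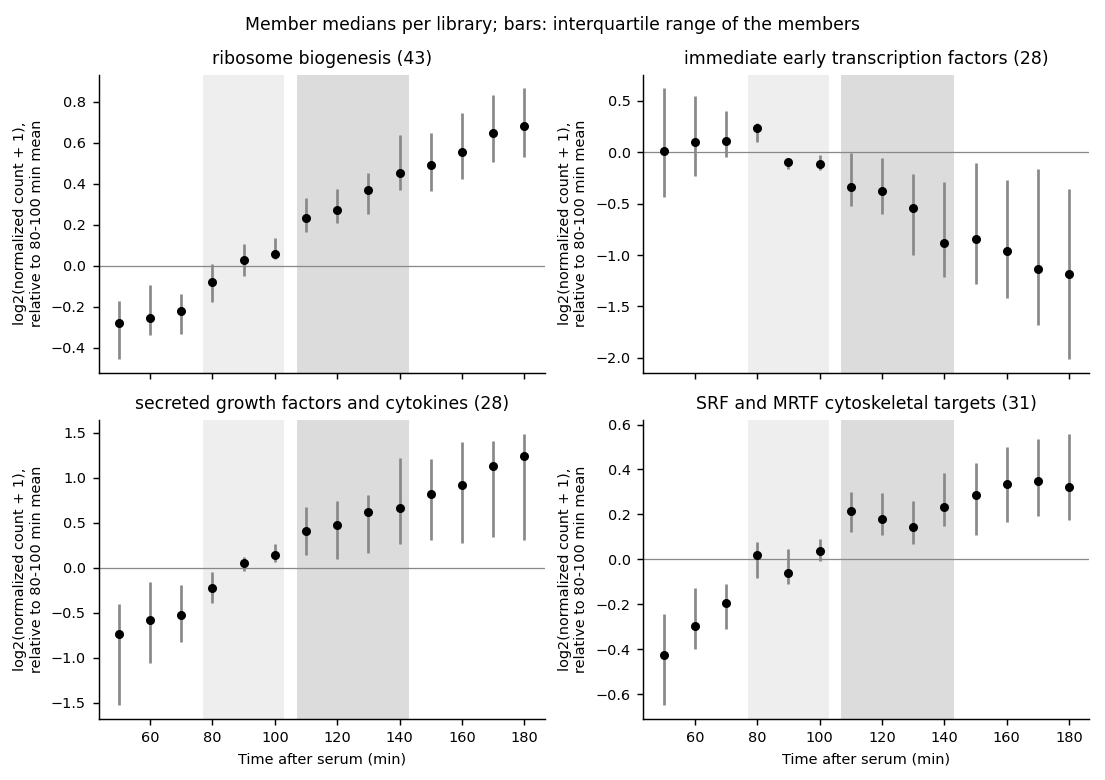
Median over list members of log2(normalized count + 1) relative to the 80-100 min mean (points, 1 per library, with the interquartile range of members as bars) against time after serum (min), for 4 gene lists with member numbers in parentheses. The ribosome biogenesis median rises from -0.08 at 80 min to 0.45 at 140 min, and the median of the immediate early transcription factors goes from 0.23 to -0.88.

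Related growth functions rose in smaller shares. Of 13 lncRNAs that host small nucleolar RNAs, which guide ribosomal RNA modification, 10 rose, SNHG1 from 1603, 2212 and 2309 to 2779, 2771, 3078 and 3352 normalized counts and GAS5 by 0.33 ± 0.07 (edgeR adjusted p = 0.0443). Of 15 genes of purine and pyrimidine synthesis 9 rose, and CTPS1, which makes CTP, had 3696, 4253 and 4347 and then 5216, 5532, 5591 and 6234 (0.46 ± 0.08, edgeR adjusted p = 0.0277). Higher members numbered 11 of 20 aminoacyl-tRNA synthetases, 11 of 28 translation initiation factors, 12 of 21 nuclear pore and transport genes, 10 of 16 cytosolic heat shock genes, 6 of 8 subunits of the CCT chaperonin and 7 of 15 SR splicing factors and CLK kinases, and none of these lists had a lower member. Without the 80 min library the synthetases fell back to 8 and the nuclear pore genes to 7, and with spike-in size factors the synthetases, nuclear pore genes, heat shock genes, CCT subunits and nucleotide synthesis genes each came to 5, the SR and CLK genes to 4 and the snoRNA hosts to 6. With 10 degrees of freedom there were 3 higher synthetases, 5 nuclear pore genes, 3 heat shock genes, 4 nucleotide synthesis genes and 5 snoRNA hosts. CHORDC1, a chaperone partner, was at 559 normalized counts at 80 min and 1211 at 90 min, and its log2 change of 0.27 ± 0.28 was -0.03 without the 80 min library.

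In several lists few members or none rose, beside 14.9% of protein-coding genes called higher and 7.69% lower. Of 82 cytosolic ribosomal protein genes 3 rose and none fell, and of 78 nuclear-encoded respiratory chain subunits 1 rose. No mitochondrially encoded mRNA of 13 passed in the spline fit or, at 0.05, in the 7-library fit. Of 20 DNA replication genes 2 were lower (10%), of 15 genes of G2 and mitosis 4 (26.7%), and of 18 genes of the unfolded protein response 1 (5.56%). None was higher in these 3 lists. No member of the replication and mitosis lists was lower with 10 degrees of freedom or with spike-in size factors. Of 30 cholesterol and fatty acid genes 4 rose and 1 fell. By contrast, the list of ATF4 and the amino acid response had 11 higher and 3 lower of 22. Zinc finger genes on chromosome 19 had 54 higher (24.2%) and 10 lower (4.48%) of 223. Of these 223, 33 rose without the 80 min library and 20 with 10 degrees of freedom. In the step before, 16 of the 223 had risen and 39 had fallen.

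**Figure D4:**
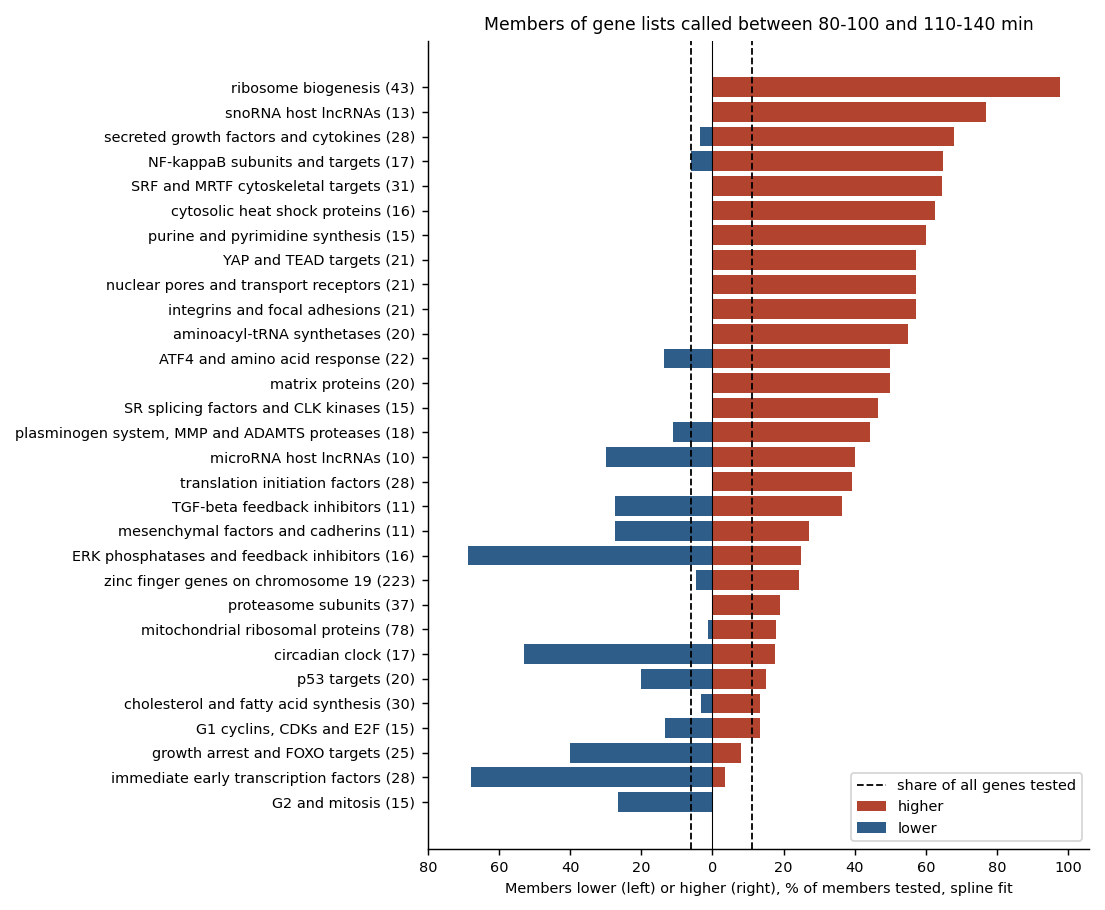
Members of gene lists called lower (blue, left) or higher (red, right) by the spline fit, as a percentage of the members tested (number in parentheses), for lists with at least 10 tested and 4 called members. Dashed lines mark the shares of all genes tested, 11% higher and 6.15% lower. Among protein-coding genes alone the shares were 14.9% and 7.69%. Ribosome biogenesis reaches 97.7% higher and the immediate early transcription factors 67.9% lower.

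Among lncRNAs, 138 rose and 161 fell. MAP3K4-AS1 had 221, 317 and 437 and then 639, 705, 902 and 1016 normalized counts, an increase in every library (log2 change 1.339 ± 0.26). LINC00311 had 5.14, 8.55 and 14.3 and then 37.4, 27.1, 25.2 and 37.5 and passed 0.05 in the 7-library fit (log2 change 1.80 ± 0.31, edgeR adjusted p = 0.0287). ENSG00000230001 had 2.57, 7.78 and 17.6 and then 20.4, 23.7, 36.2 and 34.7 (1.72 ± 0.43). TGFB2-OT1 lies on the same strand as TGFB2, LINC00311 as GSE1 and ENSG00000230001 as GLIS3, and a read in overlapping exons was counted for each gene. TGFB2-OT1 (0.82 ± 0.28) and TGFB2 (0.81 ± 0.22) therefore cannot be taken as separate measurements.

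Host transcripts of microRNAs were among the lncRNAs with the largest changes. MIR29B2CHG had 286, 209 and 180.4 and then 134, 126, 126 and 92.8 normalized counts, below the previous library each time, and passed 0.05 in the 7-library fit (log2 change -0.92 ± 0.17, edgeR adjusted p = 0.0367). MIR23AHG had 12703, 9584 and 8789 and then 7233, 6538, 5709 and 5250.1 (-0.74 ± 0.15), and MIRLET7IHG had 121, 173 and 208 and then 246, 219, 325 and 362 (0.80 ± 0.23). MIR29B2CHG and MIR23AHG fell and MIRLET7IHG rose. The mature microRNAs encoded within these 3 hosts are shown, from RefSeq, to identify what each host carries, with the seed (bases 2 to 8) in capitals. Mature microRNAs were not measured in these libraries.
hsa-miR-29b-3p: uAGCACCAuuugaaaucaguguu
hsa-miR-29c-3p: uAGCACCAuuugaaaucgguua
hsa-miR-23a-3p: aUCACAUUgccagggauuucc
hsa-miR-27a-3p: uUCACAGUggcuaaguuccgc
hsa-miR-24-3p: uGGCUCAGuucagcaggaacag
hsa-let-7i-5p: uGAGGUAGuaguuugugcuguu
These 3 hosts were not members of a separate list of 10 microRNA host lncRNAs, of which 4 were higher, such as MIR222HG (0.33 ± 0.19), and 3 lower, such as MIRLET7BHG (-0.47 ± 0.15) and MIR210HG (-0.45 ± 0.13). With spike-in size factors 3 of the 10 were higher and 0 lower, and with 10 degrees of freedom 3 and 1. The miR-29 pair of MIR29B2CHG shares a seed, while the 3 microRNAs of MIR23AHG carry 3 different ones. The other lncRNAs with the largest falls, ENSG00000275964, ENSG00000187951 and ENSG00000272446, were low, at 13.1 to 38.5 normalized counts, and changed by -0.73 ± 0.26, -0.72 ± 0.25 and -0.69 ± 0.21.

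Most called genes were also called in a neighboring step. Of the 2372 higher genes, 1388 were higher and 11 lower in the step before, and 1340 were higher and 21 lower in the step after. Of the 1330 lower genes, 505 were lower and 40 higher before, and 739 were lower and 18 higher after. Neighboring steps share a window of libraries, so these counts are a description. A strict increase through all 7 libraries was seen in 224 of the higher genes and a strict decrease in 81 of the lower ones. Over all genes tested in the spline fit, 9.44% were higher and 4.14% lower in the step before, and 8.24% and 7.02% in the step after.

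A change of slope was tested directly. With window means alone, edgeR called 0 genes against the step before (678 at an unadjusted p below 0.05, and 0 by DESeq2) and 0 against the step after (1006 at an unadjusted p below 0.05, and 0 by DESeq2). In the spline fit 267 genes had a more positive change than in the step before (1.23%) and 504 a more negative one (2.33%). Among protein-coding genes with a mean of at least 100 normalized counts, HES1 (difference of log2 changes -1.66 ± 0.09, spline adjusted p = 5.28e-17) and SNAI1 (-1.49 ± 0.09) had the most negative differences, followed by PDGFB (-1.46 ± 0.14), a growth factor chain, and LFNG (-1.29 ± 0.08), a Notch-modifying enzyme. LFNG itself did not pass in this step (log2 change 0.05 ± 0.09, spline adjusted p = 0.23) after a change of 1.25 ± 0.34 in the step before. FOS (1.23 ± 0.07), NFKBIZ (1.17 ± 0.09), SPRY1 (1.15 ± 0.08) and DUSP6 (1.05 ± 0.07) had the most positive ones. NFKBIZ, a regulator of NF-kappaB, had 594, 623 and 639 and then 790.4, 748, 896 and 1244 normalized counts after a mean of 1112 ± 315 (SD, n = 3) at 50 to 70 min.

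Against the step after, the spline fit gave 294 more positive (1.36%) and 100 more negative (0.462%) changes. Among protein-coding genes with the same minimum mean, ZSWIM6 (difference 1.004 ± 0.08), PPARGC1B (1.003 ± 0.10), a coactivator of mitochondrial genes, SPSB1 (0.93 ± 0.07) and SAMD4A (0.87 ± 0.06) had the most positive differences. PPARGC1B had 92.5, 107 and 164 and then 236, 217, 215 and 261 normalized counts and a mean of 216 ± 37.6 (SD, n = 4) at 150 to 180 min. DUSP6 (-2.16 ± 0.09), FOS (-1.41 ± 0.09), EGR1 (-1.36 ± 0.15) and ZFP36 (-1.18 ± 0.13) had the most negative ones, and their log2 changes in the step after were 0.95 ± 0.28, -0.25 ± 0.15, 0.06 ± 0.14 and 0.15 ± 0.13.

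No gene had a jump between the windows beyond a straight line in time at an adjusted p of 0.01 in the 7-library fit, with 1853 at an unadjusted p below 0.05 and 0 by DESeq2. Without the 80 min library 35 genes had a positive and 438 a negative jump, and with spike-in size factors 0 and 1576, where the median over all genes moved from 0.03 to -0.52.

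Called protein-coding genes differed in span from first to last annotated base. Among 11898 protein-coding genes with a mean of at least 50 normalized counts, the median span was 34.8 kb, against 41.5 kb for 2033 higher and 29.3 kb for 991 lower genes. The share called higher was 13.7% of genes under 10 kb, 16.2% of those of 10 to 30 kb, 17.7% of those of 30 to 100 kb, 21.9% of those of 100 to 200 kb and 17.1% of those of 200 kb and over. The share called lower was 10.3%, 8.67%, 7.43%, 8.07% and 7.12% in the same order. In the step before, the shares higher were 14.8%, 13.6%, 14.1%, 15.4% and 10.9%. These shares are descriptions.

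Promoter motifs were counted in 250 bases before to 50 after the start for 11046 of 14050 protein-coding symbols that matched RefSeq. The ETS match was in 22.3% of 1694 higher, 12.9% of 867 lower and 18.6% of all matched promoters. The E-box was in 12.1% of higher, 12.5% of lower and 9.97% of all. Among ribosome biogenesis genes 14 of 36 promoters (38.9%) held the E-box and 12 (33.3%) the ETS match. The NF-kappaB site was in 10 of 14 promoters of the NF-kappaB list against 12.9% of all, and the SRF CArG box in 6 of 29 promoters of the SRF and MRTF list against 1.13%, both lists having been drawn up from known targets. A match in these letters does not show that a factor was bound.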

How the data were processed

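Gene expression was measured by RNA-seq in 41 cultures of T98G cells, 1 library per time point. Per the labels and the study's methods, the authors trimmed reads with cutadapt 1.11, aligned them to GRCh38 with STAR 2.5.2a and counted read pairs over exons by strand with featureCounts, with multi-mapping reads and reads in several genes counted for each gene. The deposited values are raw counts for 58721 genes and 77 spike-in sequences, of which 58207 genes matched GENCODE 44.

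Normalized counts are counts divided by median-of-ratios size factors (0.883 to 1.29 in the 7 libraries). Genes were kept with more than 10 counts in at least 1 library and more than 2 in 3 consecutive libraries, after the filter in the study's code, which left 21629. Windows were compared with edgeR 4.0.16 (quasi-likelihood, Benjamini-Hochberg adjustment, adjusted p of 0.01), with 3 against 4 libraries and 5 residual degrees of freedom, so p-values measure the spread among neighboring single cultures. The spline fit had knots at 20, 40, 60, 100, 160 and 260 min. DESeq2 1.42.0 was an alternative.

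Named genes were the 12 protein-coding genes (mean of at least 100 normalized counts) and 5 lncRNAs (at least 20) with the largest changes each way and windows that did not overlap, up to 3 called genes per list by size of change and the 4 largest slope changes each way. The members and lists were chosen with earlier results of these data known, and the spline fit was put in the place of the 7-library fit for naming after that fit had called no gene. Promoters and microRNAs came from RefSeq (GRCh38.p14). Total counts ranged from 36781459 to 51723300. Some named items are not reported here.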

Additional observations from a re-analysis of the deposited data

Results flagged for a closer look

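Of 165 groups of 4 libraries examined, in the window of 110 to 140 min, 2 had a library whose gap to its nearest neighbor took an unusually large share of the group's range, above Dixon's 95% critical value. Chance flags about 1 in 20 groups. In DDIT4, an inhibitor of mTORC1, the share was 0.903, with 488 normalized counts at 140 min and 303 to 320.5 in the other 3 libraries. DDIT4 kept rising after this window, with 599, 764, 1076 and 1187 at 150, 160, 170 and 180 min. In ZNF649, a zinc finger gene, it was 0.856, with 385 at 140 min and 319 to 328 in the others. Groups of 3 libraries were not examined.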

How the results depend on the processing

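Calls depended strongly on the model and the scaling. With the 7 libraries, genes higher and lower numbered 0 and 0 as reported and 283 and 77 by DESeq2. They numbered 299 and 67 without a filter, 1 and 14 with spike-in size factors, and 172 and 28 at an adjusted p of 0.05. Leaving out 1 of the 7 libraries from the edgeR fit gave 0 to 72 higher and 0 to 39 lower, both highest without 80 min. With all 41 libraries, genes higher and lower numbered 469 and 119 in 10 windows and 2372 and 1330 by the spline fit. The spline fit gave 1562 and 135 with spike-in size factors, 1110 and 374 with 10 degrees of freedom, and 3084 and 2626 with evenly spaced knots (54.0% higher), and 1924 to 2512 and 983 to 1413 with 1 library left out. With spike-in scaling the spline median over all genes was 0.144, against -0.0029 as reported. For the change of slope, edgeR over window means called 0 genes in each direction against either step. Leaving out 1 library from that fit gave 0 to 0 positive and 0 to 7 negative against the step before (7 without 80 min) and 0 to 0 for both against the step after. The spline fit gave 267 positive and 504 negative against the step before and 294 and 100 against the step after, and was not run with a library left out for this test. Jumps beyond a line in time numbered 0 to 35 positive and 0 to 438 negative with 1 library left out, and 1576 negative with spike-in size factors. The cause of these differences was not tested.

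Log2 changes of the 161 named genes kept their sign in all but 18 of 2399 recomputed values. Apart from markers and genes named for a change of slope, these genes were named for calls in these same data. Those with the largest changes also had to have windows that did not overlap. A kept sign was therefore largely set by the choice of genes and is not independent support. With 1 library left out, the changes ranged from -0.0258 to 0.476 for CHORDC1, -0.195 to 0.0256 for MCM5, -0.234 to 0.0333 for OSGIN1, -0.114 to 0.102 for H1-2, -0.0325 to 0.277 for PSMC6, -0.241 to 0.197 for SPRY1, -0.284 to 0.0861 for OLIG2, -0.332 to 0.101 for PECAM1, -0.00370 to 0.398 for EPCAM, -0.0626 to 0.909 for CDH5 and -0.324 to 0.0192 for VWF, and the sign changed without 80 min in the first 9, for H1-2 also without 140 min, without 120 min in CDH5 and without 100 min in VWF. LFNG was -0.0036 with library size alone. In the spline fit NES was 0.012, PTPRC -0.049, PECAM1 0.072, CDH5 -0.17 and VWF 0.016. No paired analysis was possible because the labels give no replicate numbers. In the 7-library fit, error between cultures and change within a window cannot be told apart.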
